A study of Homo sapiens with 10 samples.

Results

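Genes of the lysosome and of autophagy were examined for acetylation of histone H3 lysine 27 (H3K27ac), a mark of active promoters and enhancers, in H1975 cells. A list of 51 genes was used, and its members were the regions whose assigned gene symbol was on the list. Of 67387 annotated regions, 222 were assigned to 47 of these genes. BECN1, CTSS, MAP1LC3A and NEU1 had none. The genes were listed by function, with earlier results of these data known. All 222 regions passed the filter on low counts and were tested among 157919 of the 169637 counted regions.

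H1975 is a human lung adenocarcinoma line with mutant EGFR, and osimertinib is an irreversible inhibitor of mutant EGFR. Chromatin was immunoprecipitated in 3 groups of 3 libraries, and 1 input library was pooled for the series. The DMSO group grew without drug for 21 days and then received DMSO for 3 days. The osimertinib DTP group (drug tolerant persister cells, the survivors of treatment) received 500 nM osimertinib for 24 days. The osimertinib DTP + AZD5153 group received 500 nM osimertinib for 21 days and then 150 nM AZD5153, an inhibitor of the acetyl-lysine-binding BET proteins, for 3 days. This regimen is named a sequential combination, and it is not stated whether osimertinib was kept on during the last 3 days. The study asks which vulnerabilities persister cells acquire. Each group is a bulk culture of 1 line, so a larger share of cells carrying the mark and more mark per cell cannot be told apart.

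Lysosomes are acidified by the V-ATPase and degrade cargo with proteases, glycosidases and lipid-handling proteins. Autophagy delivers that cargo: the ULK complex starts a membrane, a lipid kinase complex, WIPI and ATG2 proteins and ATG9 expand it, the ATG12-ATG5-ATG16L1 machinery attaches ATG8 proteins to it, and receptors such as SQSTM1 load it. TFEB and MITF belong to a family of transcription factors that activate many of these genes through the CLEAR element. At the lysosome surface, RRAGC, RRAGD, FLCN and its partners FNIP1 and FNIP2 couple nutrient supply to these factors.

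The core of the CLEAR element, TCACGTGA, reads the same on both strands and contains the E-box CACGTG. It was searched for in RefSeq windows from 250 bases before to 50 after each start site (GRCh38.p14). It was found in 344 of 35116 windows (0.98%) and in 5 of the 50 windows (10.0%) of the 39 members that had one. The E-box was found in 2548 windows (7.26%) and in 10 of the 50 member windows. The upstream stretches of the 5 genes with the full element are shown, since they place the letters that the family recognizes just before the start site. Each runs 5′ to 3′ on the gene's strand, with 1 element in capitals. The stretches of CTSA, GAA, LAMP1 and MCOLN1 end at the last base before the start. That of ATP6V0D1 is cut 40 bases after its element and ends short of the start. They lie at chr16:67481170-67481257 (minus strand, ATP6V0D1), chr20:45891269-45891334 (plus strand, CTSA), chr17:80101509-80101580 (plus strand, GAA), chr13:113297170-113297238 (plus strand, LAMP1) and chr19:7522542-7522623 (plus strand, MCOLN1).
ATP6V0D1: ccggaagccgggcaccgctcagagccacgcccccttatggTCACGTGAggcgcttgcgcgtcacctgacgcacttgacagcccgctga
CTSA: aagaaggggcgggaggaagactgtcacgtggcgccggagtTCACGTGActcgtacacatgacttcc
GAA: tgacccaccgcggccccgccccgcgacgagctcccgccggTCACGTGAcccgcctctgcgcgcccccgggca
LAMP1: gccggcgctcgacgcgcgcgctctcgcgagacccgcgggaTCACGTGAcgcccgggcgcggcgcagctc
MCOLN1: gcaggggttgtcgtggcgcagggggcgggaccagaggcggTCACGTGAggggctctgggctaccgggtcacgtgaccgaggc

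ATP6V0D1 encodes a V-ATPase subunit, CTSA a protective carboxypeptidase, GAA the acid alpha-glucosidase, LAMP1 a membrane glycoprotein and MCOLN1 a lysosomal calcium channel. The elements start 60, 26, 32, 29 and 42 bases before the start site in that order. GAA, LAMP1 and MCOLN1 hold a further copy in the window. The counted region over the CTSA window was assigned to its neighbour NEURL2, so that stretch did not enter the values of CTSA below.

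Total counts per library ran from 6263443 to 10463351. Promoter regions, defined as those within 1 kb of a start site, took 40.34% to 45.94% of annotated counts in 7 libraries, against 59.82% in osimertinib DTP replicate 2 and 66.7% in osimertinib DTP + AZD5153 replicate 3. Values named below as highest in these 2 libraries are also given without them. Over the member regions, osimertinib DTP + AZD5153 replicate 3 had Spearman correlations of 0.553 and 0.48 with the other libraries of its group and 0.838 with osimertinib DTP replicate 2. All 9 lung epithelial and adenocarcinoma markers had promoter signal, with summed levels of 1644 to 2260.0 CPM (counts scaled to a common library total) for DMSO, 1500.0 to 2619 for osimertinib DTP and 1571 to 1901 for osimertinib DTP + AZD5153. By edgeR SFTPB fell by 2.26 on the log2 scale in osimertinib DTP + AZD5153 against DMSO. That comparison, not the one with osimertinib DTP, is meant wherever a change is given "with AZD5153 added". No other promoter sum of these 9 was called. Outside promoters EPCAM and CDH1 were called lower in both comparisons, and KRT18 was called higher with AZD5153 added. Of 9 non-epithelial markers, CD3E, DCN, PECAM1 and PTPRC had no promoter region. The other 5 summed to 137 to 184 CPM for DMSO, 209.7 to 318 for osimertinib DTP and 284 to 320.0 for osimertinib DTP + AZD5153. They went in different directions: PDGFRB rose by 1.91 and 2.33, COL1A1 rose by 1.31 in osimertinib DTP and CD79A fell by 3.09 there on the log2 scale, while CD14 and CDH5 were not called. The part of these markers in the results was not tested.

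The members took a larger share of all promoter counts after treatment. That share was 0.326%, 0.317% and 0.327% in DMSO replicates 1 to 3, 0.380%, 0.414% and 0.384% for osimertinib DTP, and 0.386%, 0.394% and 0.460% for osimertinib DTP + AZD5153. Every treated library lay above every DMSO library, and both treated groups overlapped. Group means were 0.324% ± 0.00542, 0.392% ± 0.0185 and 0.413% ± 0.0403 (SD, n = 3). Outside the promoter classes no such shift was seen: the members' share of those counts was 0.290% to 0.302% for DMSO, 0.289% to 0.302% for osimertinib DTP and 0.290% to 0.319% for osimertinib DTP + AZD5153, with all groups overlapping.

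**Figure D1:**
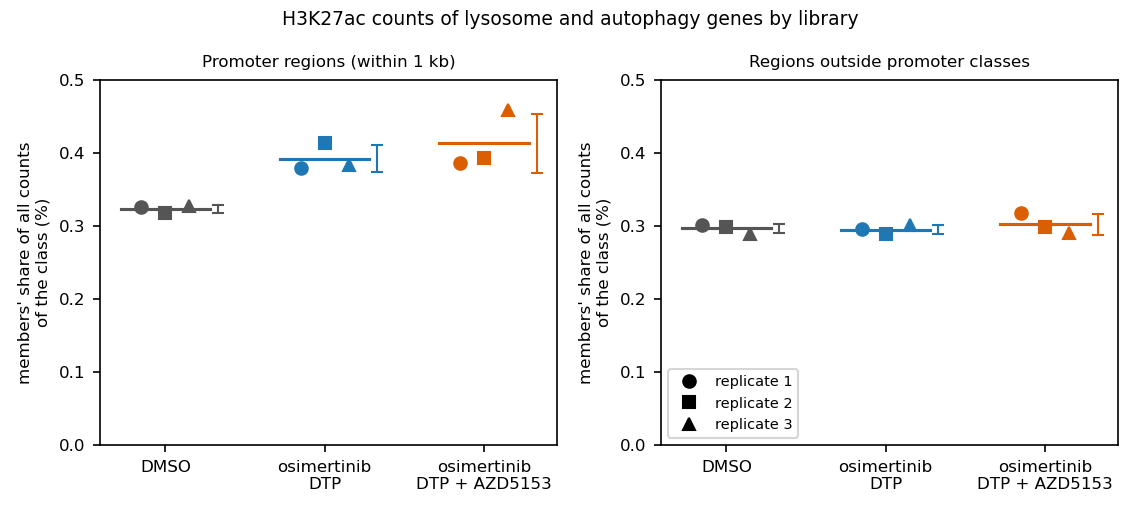
Share (%) of all promoter counts (left) and of all counts outside the promoter classes (right) that fell on the lysosome and autophagy genes, by group, where symbols are replicates, horizontal lines group means and error bars the SD (n = 3). At promoters the DMSO libraries sit at 0.317% to 0.327% and the treated libraries at 0.380% to 0.460%, while on the right all groups overlap.

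Each region was tested with edgeR's quasi-likelihood test with Benjamini-Hochberg adjustment over all tested regions, and called when the adjusted p was under 0.05. Changes are log2 fold changes ± SE, where 1 is a change of 2-fold. The p-values measure the spread among libraries that the labels call biological triplicates. In osimertinib DTP against DMSO, 24 of the 222 member regions were called higher (10.8%) and 12 lower (5.41%), against 5.58% and 5.13% of all regions. In osimertinib DTP + AZD5153 against DMSO, 32 were called higher (14.4%) and 22 lower (9.91%), against 9.05% and 9.01%. Against all regions, the shares called higher were above the background and those called lower were near it. This background takes in regions without annotation, while the members are all annotated. Annotated regions outside promoters were called more often, 9.79% higher and 10.8% lower in osimertinib DTP and 14.3% and 16.1% with AZD5153 added. Annotated promoter regions were called less often, and members are set against each class below. These calls fell on 18 of the 47 genes (38.3%), the same share as over all 15633 annotated genes (38.3%). With osimertinib DTP, 12 genes had a region called higher (25.5%, against 14% of all genes) and 5 a region called lower (10.6%, against 14.2%). With AZD5153 added the numbers were 14 (29.8%, against 18.9%) and 5 (10.6%, against 20.8%), and 29 genes had no region called in any comparison. Both comparisons use the same DMSO libraries. The counts of calls depended on single libraries. In osimertinib DTP against DMSO they fell to 1 higher and 1 lower without DMSO replicate 2 and rose to 46 and 36 without osimertinib DTP + AZD5153 replicate 3, which enters through the shared spread. Calls over all regions moved with them. Without DMSO replicate 2, 668 of 164143 regions were called higher and 482 lower. Without osimertinib DTP + AZD5153 replicate 3, 22942 and 20489 of 161758 were. A loess offset, a scaling that follows signal strength, gave 22 higher and 26 lower in osimertinib DTP + AZD5153 against DMSO, and DESeq2 gave 30 higher and 23 lower in osimertinib DTP against DMSO. Of all 157919 regions in the same comparisons, the loess offset called 12489 higher and 14707 lower, and DESeq2 12497 and 15406.

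A minority of the promoter regions passed the test, and most changes were positive. Of 95 promoter regions, 78 had a positive change in osimertinib DTP against DMSO, with a median of 0.74, against 0.35 over all annotated promoter regions and 0.15 over all tested regions. Called were 9 higher and 2 lower, 9.47% and 2.11% of the 95, against 2.78% and 1.85% of annotated promoter regions. With AZD5153 added, the median was 0.88 against 0.42 over annotated promoter regions, and 11 were called higher (11.6%) and 0 lower, against 5.32% and 3.18% of annotated promoter regions. By edgeR 35 of the 95 (36.8%) had an unadjusted p under 0.05 in that comparison, against 18.6% of annotated promoter regions and 31.9% of all regions. The lift of all promoters followed the 2 promoter-rich libraries. Without osimertinib DTP replicate 2 the member median was 0.11 and the median of all promoters -0.15. Without osimertinib DTP + AZD5153 replicate 3 the medians of osimertinib DTP + AZD5153 against DMSO were 0.38 and -0.00. The gap between members and all promoters was less variable, 0.26 to 0.50 over all fits in osimertinib DTP and 0.29 to 0.51 with AZD5153 added.

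**Figure D2:**
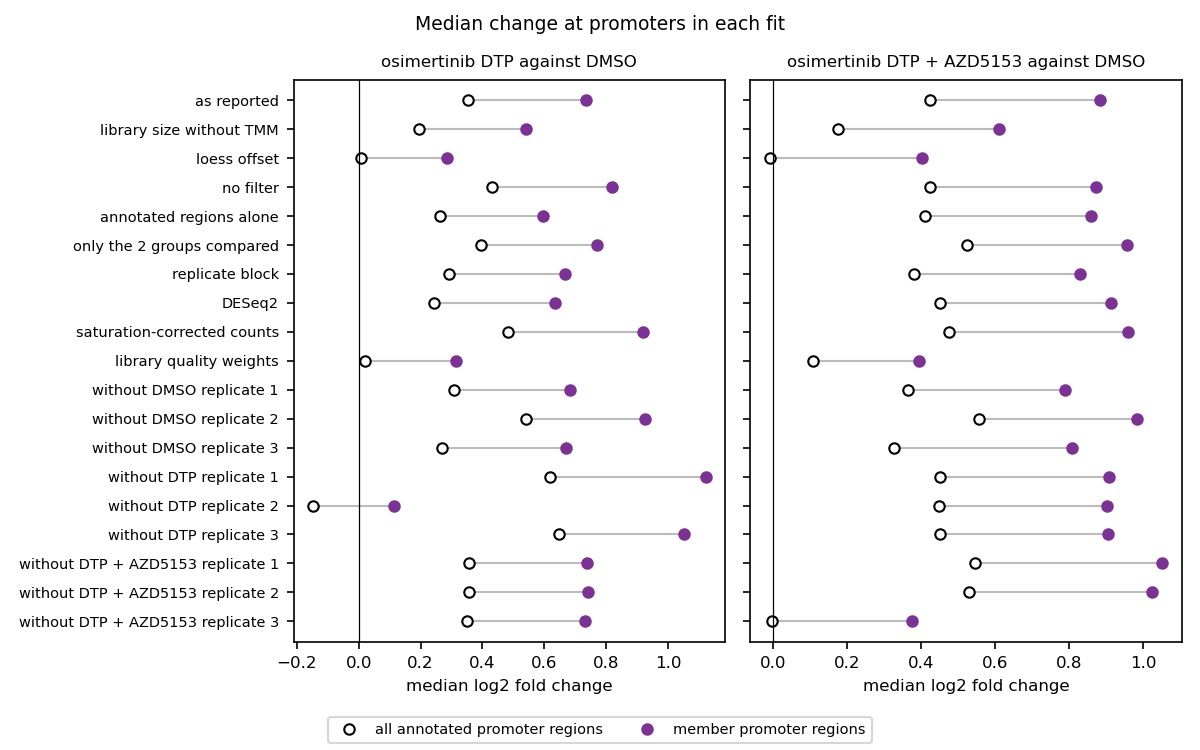
Median log2 fold change of the 95 member promoter regions (filled) and of all annotated promoter regions (open) in each fit, for both comparisons with DMSO, where each row is 1 setting or 1 library left out. Both medians are low with the loess offset, with library quality weights and without osimertinib DTP replicate 2 (left) or osimertinib DTP + AZD5153 replicate 3 (right), and the filled point stays to the right of the open one in every row.

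To give each gene 1 value, counts of its promoter regions were summed and tested over 12295 genes. CPM of these sums are counts scaled to the TMM-adjusted total of that table, a different scale from the CPM of single regions. On this scale promoters were compared only with other promoters, and the median of all genes was 0.01 in osimertinib DTP and 0.02 with AZD5153 added. The member medians were 0.39 and 0.46, and 36 of 47 members had a positive change in each. Called were 5 higher and 1 lower in osimertinib DTP against DMSO, 6 of 47 (12.8%) where 6.15% of all genes were called, and 8 higher and 0 lower with AZD5153 added (17.02%) where 13.9% of all genes were called. The replicate block, which pairs libraries of the same number, cut the 6 calls to 3. Without DMSO replicate 2 there were 0 calls in osimertinib DTP against DMSO and 4 with AZD5153 added. Without osimertinib DTP + AZD5153 replicate 3 there were 14 in each.

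**Figure D3:**
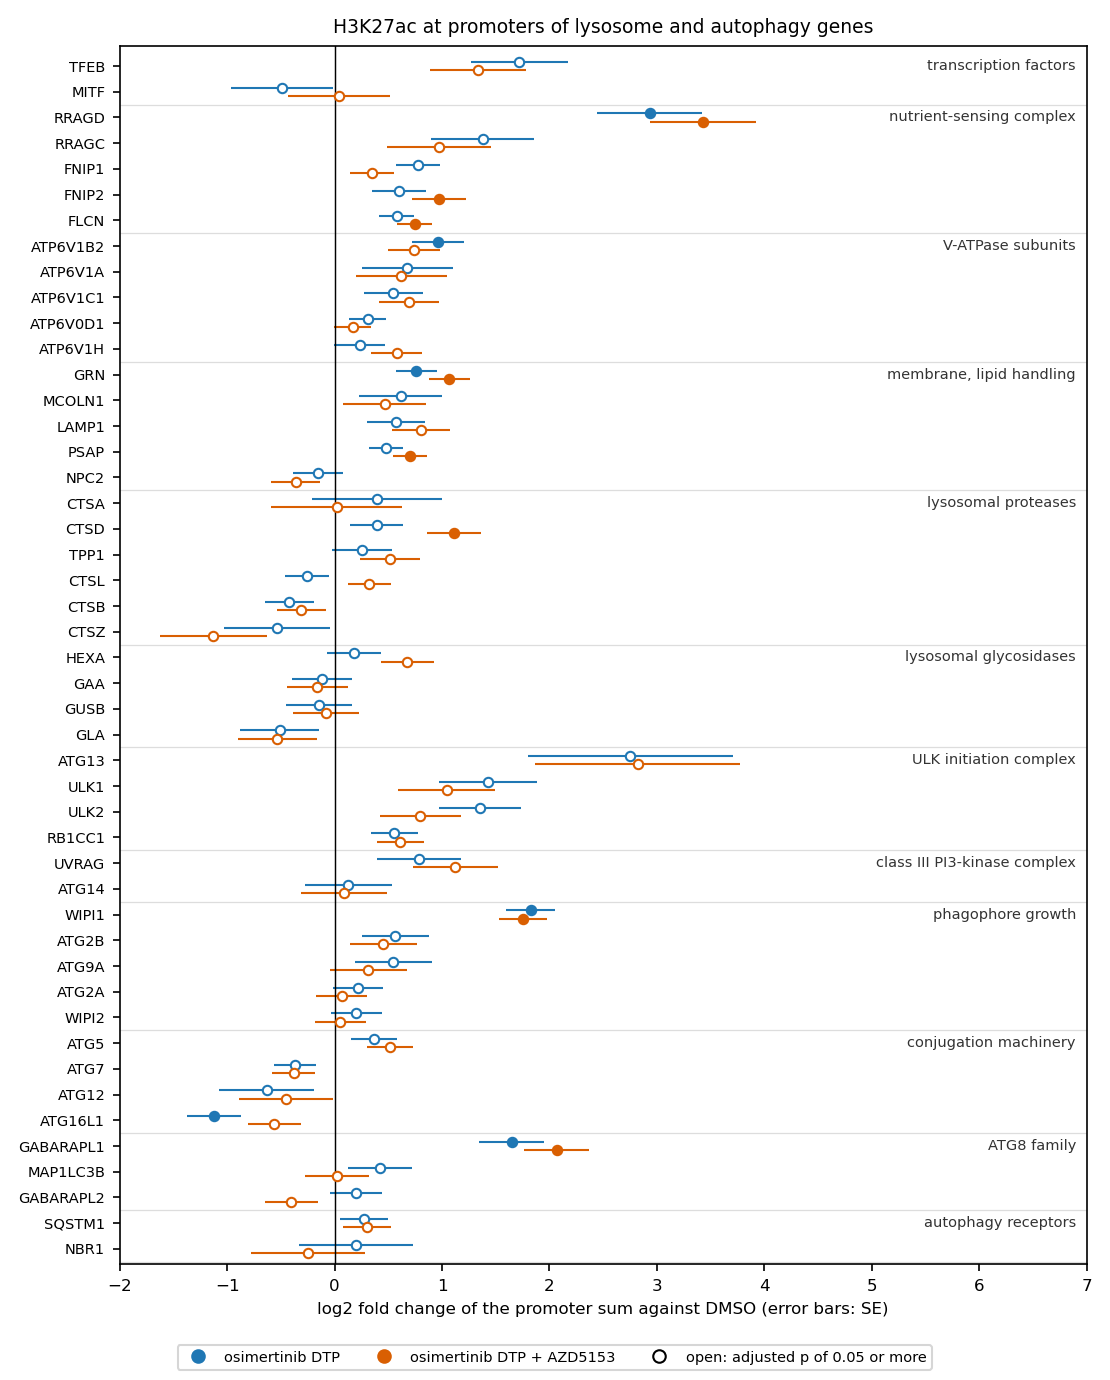
Log2 fold change against DMSO of the promoter sum of the 47 genes, ordered by role, in osimertinib DTP (blue) and osimertinib DTP + AZD5153 (orange), where bars are SE and filled points passed the adjusted p threshold of 0.05. RRAGD, GABARAPL1, WIPI1 and GRN are filled in both colours, and ATG16L1 is the only filled point left of 0.

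Of the 2 transcription factors, TFEB gained promoter signal at single start sites, while its sum did not pass the test. The TFEB promoter sum was 58.99, 21.4 and 17.4 CPM for DMSO, 129, 109 and 85.3 for osimertinib DTP and 86.1, 55.1 and 106 for osimertinib DTP + AZD5153. Every treated library but osimertinib DTP + AZD5153 replicate 2 lay above the highest DMSO library, and the changes were 1.72 ± 0.45 (adjusted p = 0.0550) and 1.33 ± 0.45 (adjusted p = 0.0780). Its promoter region at chr6:41733858-41734359 rose by 2.37 ± 0.70 (adjusted p = 0.0385) in osimertinib DTP and by 2.10 ± 0.70 (adjusted p = 0.0454) with AZD5153 added, and the one at chr6:41735058-41735559 rose by 3.05 ± 0.83 (adjusted p = 0.0277) in osimertinib DTP. Here osimertinib DTP replicate 2 had 20.04 and 19.8 CPM, against 4.43 to 6.31 and 2.77 to 3.52 in the other 2 libraries of its group. The osimertinib DTP call of the first region was lost without 6 of the 9 libraries in turn (adjusted p 0.0502 to 0.2196) and kept without osimertinib DTP + AZD5153 replicate 1, osimertinib DTP + AZD5153 replicate 2 or osimertinib DTP + AZD5153 replicate 3 and, with AZD5153 added, was lost without 7 of the 9 libraries in turn (adjusted p 0.0516 to 0.184) and kept without osimertinib DTP + AZD5153 replicate 2 or osimertinib DTP replicate 2, and the call of the second was lost without DMSO replicate 1 (0.0627), DMSO replicate 2 (0.133), DMSO replicate 3 (0.136) or osimertinib DTP replicate 2 (0.228). The strongest promoter region by mean count, at chr6:41705902-41706403, had 4.99, 2.89 and 0.704 CPM for DMSO, 10.2, 19.5 and 4.93 for osimertinib DTP and 8.82, 5.58 and 20.1 for osimertinib DTP + AZD5153, and its change in osimertinib DTP was 2.00 ± 0.73 (adjusted p = 0.0863). Without osimertinib DTP replicate 2 that change was 1.46 ± 0.77 (adjusted p = 0.306 by edgeR). With AZD5153 added and without its replicate 3, the change was 1.32 ± 0.61 (adjusted p = 0.0919 by edgeR). MITF had promoters that differed in sign. The strongest, at chr3:69763363-69763864, had 20.9, 26.95 and 19.2 CPM for DMSO, 11.9, 5.57 and 5.64 for osimertinib DTP and 20.1, 13.7 and 2.71 for osimertinib DTP + AZD5153. All osimertinib DTP libraries lay below all DMSO libraries, but the change was -1.54 ± 0.64 (adjusted p = 0.136), and the osimertinib DTP + AZD5153 libraries overlapped both. A downstream start site of MITF, at chr3:69865717-69866218, had 5.99, 6.299 and 6.34 CPM for DMSO, 11.6, 16.7 and 15.9 for osimertinib DTP and 32.4, 30.1 and 8.89 for osimertinib DTP + AZD5153. Treated libraries were all above DMSO, and the change was 1.24 ± 0.56 (adjusted p = 0.1698) in osimertinib DTP and 1.94 ± 0.57 (adjusted p = 0.0264) with AZD5153 added, a call that was lost without 5 of the 9 libraries in turn (adjusted p 0.0681 to 0.118) and kept without osimertinib DTP + AZD5153 replicate 3, osimertinib DTP replicate 1, osimertinib DTP replicate 2 or osimertinib DTP replicate 3. The difference between the start sites was not tested, and the sum over MITF promoters had a change of -0.49 ± 0.47.

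All 5 nutrient-sensing genes had positive promoter changes in both comparisons, and RRAGD, a Rag GTPase that docks TFEB and MITF at the lysosome, had the largest change of any member promoter sum. Its promoter sum was 3.69, 2.43 and 1.77 CPM for DMSO, 17.1, 25.1 and 18.9 for osimertinib DTP and 20.9, 18.4 and 47.3 for osimertinib DTP + AZD5153. No treated library overlapped DMSO, and RRAGD rose by 2.93 ± 0.49 (adjusted p = 0.0113) in osimertinib DTP and by 3.43 ± 0.49 (adjusted p = 0.00380) with AZD5153 added. The osimertinib DTP call was lost without DMSO replicate 2 (0.0668) or DMSO replicate 3 (0.0631), and the other held with each library left out in turn (adjusted p up to 0.0253). The stronger promoter region, chr6:89412300-89412801, lies at -27 bp from the start site. It held 6, 7 and 3 reads for DMSO, 23, 85 and 29 for osimertinib DTP and 43, 30 and 82 for osimertinib DTP + AZD5153. The DMSO libraries were near empty, and the region rose by 3.39 ± 0.83 (adjusted p = 0.0165) and 3.86 ± 0.84 (adjusted p = 0.00582). Without osimertinib DTP replicate 2 the first of these had an adjusted p of 0.108, and it was also lost without DMSO replicates 1, 2 or 3. The neighbouring region chr6:89411645-89412146, at 0 bp from a start site, held 6, 2 and 2 reads for DMSO, 29, 41 and 18 for osimertinib DTP and 24, 23 and 76 for osimertinib DTP + AZD5153. This neighbour rose by 4.27 ± 0.87 (adjusted p = 0.00422) with AZD5153 added. MACS2 peaks overlapped the stronger RRAGD promoter region in 4 of 9 libraries. These were every osimertinib DTP + AZD5153 library and, of the osimertinib DTP libraries, only the promoter-rich replicate 2. FLCN, the folliculin part of a GTPase-activating complex, had 124, 107 and 112 CPM for DMSO, 187, 160.4 and 164 for osimertinib DTP and 164, 188 and 222 for osimertinib DTP + AZD5153 over its single promoter region. Each treated library was above DMSO. The change was 0.58 ± 0.16 (adjusted p = 0.0657) in osimertinib DTP and 0.74 ± 0.16 (adjusted p = 0.0158) with AZD5153 added, where the call was lost without DMSO replicate 2 (0.0829) or DMSO replicate 3 (0.0756). FNIP2, a folliculin partner, had 24.9, 30.8 and 25.9 CPM for DMSO, 43.4, 45.4 and 35.00 for osimertinib DTP and 45.5, 45.02 and 69.4 for osimertinib DTP + AZD5153, with no overlap between DMSO and treated libraries, and rose by 0.97 ± 0.25 (adjusted p = 0.0327) with AZD5153 added. That call was lost without 5 of the 9 libraries in turn (adjusted p 0.0537 to 0.134) and kept without osimertinib DTP replicate 2, osimertinib DTP replicate 3, osimertinib DTP + AZD5153 replicate 2 or osimertinib DTP + AZD5153 replicate 3. FNIP1 had a change of 0.78 ± 0.21 (adjusted p = 0.0565) in osimertinib DTP and RRAGC, the other Rag GTPase, of 1.38 ± 0.48 (adjusted p = 0.137).

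The 5 V-ATPase genes, which encode subunits of the proton pump, had positive changes in both comparisons, from 0.23 to 0.96 in osimertinib DTP and 0.17 to 0.74 with AZD5153 added. ATP6V1B2, a subunit of the catalytic head, had 33.5, 29.2 and 29.4 CPM for DMSO, 60.5, 47.4 and 72.00 for osimertinib DTP and 56.5, 58.2 and 39.2 for osimertinib DTP + AZD5153. All treated libraries were above DMSO, and it rose by 0.96 ± 0.24 (adjusted p = 0.0497) in osimertinib DTP, while the change with AZD5153 added was 0.74 ± 0.24 (adjusted p = 0.0748). The call was lost without 8 of the 9 libraries in turn (adjusted p 0.0529 to 0.199) and kept without osimertinib DTP + AZD5153 replicate 3, and the replicate block gave 0.0949. The strongest promoter region of ATP6V1A, the catalytic subunit, at chr3:113747240-113747741, had 14.5, 16.9 and 14.5 CPM for DMSO, 17.7, 34.7 and 30.4 for osimertinib DTP and 22.1, 38.6 and 25.1 for osimertinib DTP + AZD5153. Treated and DMSO libraries did not overlap, yet the changes were 0.85 ± 0.50 (adjusted p = 0.313) and 0.90 ± 0.50 (adjusted p = 0.232). ATP6V0D1, whose CLEAR element is printed above, had a change of 0.31 ± 0.17 (adjusted p = 0.3598).

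Among the 5 membrane and lipid-handling genes, GRN and PSAP gained promoter signal. GRN encodes progranulin, a secreted precursor that is cleaved in the lysosome, and its sum was 51.00, 54.4 and 55.7 CPM for DMSO, 71.3, 101 and 101 for osimertinib DTP and 102, 105 and 131 for osimertinib DTP + AZD5153. DMSO and treated libraries did not overlap. GRN rose by 0.76 ± 0.19 (adjusted p = 0.0499) in osimertinib DTP and by 1.07 ± 0.19 (adjusted p = 0.00845) with AZD5153 added. The first call lay at the threshold. It was lost without 7 of the 9 libraries in turn (adjusted p 0.0652 to 0.166) and kept without osimertinib DTP replicate 1 or osimertinib DTP + AZD5153 replicate 3, the replicate block gave 0.0586, and scaling without TMM gave 0.0577. The second held with each library left out in turn (adjusted p up to 0.0446). PSAP, the precursor of the saposins that help break down sphingolipids, had 82.6, 93.8 and 92.5 CPM for DMSO, 109, 136 and 129.5 for osimertinib DTP and 128, 151 and 160.1 for osimertinib DTP + AZD5153. No treated library overlapped DMSO, and the change was 0.48 ± 0.16 (adjusted p = 0.118) in osimertinib DTP and 0.70 ± 0.16 (adjusted p = 0.0196) with AZD5153 added. The latter call was lost without DMSO replicate 1 (0.0766), DMSO replicate 2 (0.0803), DMSO replicate 3 (0.0855) or osimertinib DTP + AZD5153 replicate 2 (0.0527). LAMP1 is the commonly used lysosome marker. Its strongest promoter region, at chr13:113296642-113297143, had 7.98, 11.2 and 8.75 CPM for DMSO, 9.56, 36.5 and 8.36 for osimertinib DTP and 14.8, 16.1 and 45.03 for osimertinib DTP + AZD5153. Highest were the 2 promoter-rich libraries, and the changes were 0.96 ± 0.65 (adjusted p = 0.385) and 1.44 ± 0.65 (adjusted p = 0.136). For LAMP1 the changes were 0.00 ± 0.58 (adjusted p = 0.999) without osimertinib DTP replicate 2 and 0.73 ± 0.54 (adjusted p = 0.302) without osimertinib DTP + AZD5153 replicate 3. The LAMP1 sum had a change of 0.57 ± 0.27 (adjusted p = 0.273), that of MCOLN1 of 0.61 ± 0.39 (adjusted p = 0.423) and that of NPC2, a cholesterol carrier, of -0.15 ± 0.23 (adjusted p = 0.784).

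Of the hydrolase promoter sums, only that of CTSD passed the test. Of 6 protease promoter sums 3 had positive and 3 negative changes in osimertinib DTP, none called, and of 4 glycosidases 1 was positive. By edgeR 0 of these 10 were called in osimertinib DTP, and with AZD5153 added CTSD alone was. Of all genes, 6.15% and 13.9% were called, and a difference from these shares was not tested. CTSD encodes the aspartic protease cathepsin D. Its sum was 158, 167 and 192 CPM for DMSO, 176, 264 and 239 for osimertinib DTP and 320.0, 286 and 510.1 for osimertinib DTP + AZD5153. Only the osimertinib DTP + AZD5153 libraries were all above DMSO, and it rose by 1.11 ± 0.25 (adjusted p = 0.0187) there, against 0.39 ± 0.25 (adjusted p = 0.422) in osimertinib DTP. That call was lost without DMSO replicate 1 (0.0639), DMSO replicate 2 (0.0803) or DMSO replicate 3 (0.0595). The strongest CTSD promoter region, chr11:1762842-1763343, had 19.4, 22.3 and 22.2 CPM for DMSO, 18.9, 62.3 and 26.99 for osimertinib DTP and 40.3, 36.4 and 118 for osimertinib DTP + AZD5153, with changes of 0.76 ± 0.58 (adjusted p = 0.455) and 1.60 ± 0.59 (adjusted p = 0.0663). The same 2 libraries were highest in their groups. For CTSD the changes were 0.16 ± 0.52 (adjusted p = 0.917) without osimertinib DTP replicate 2 and 0.84 ± 0.48 (adjusted p = 0.171) without osimertinib DTP + AZD5153 replicate 3. At the ends of these groups, CTSA had a change of 0.39 ± 0.61 and the exopeptidase gene CTSZ of -0.53 ± 0.49 in osimertinib DTP. HEXA, a hexosaminidase subunit, had a change of 0.18 ± 0.25 and GLA, alpha-galactosidase A, of -0.51 ± 0.37. GAA, which holds 2 CLEAR elements, had a change of -0.12 ± 0.28. None of the 5 genes with a full CLEAR element had its promoter sum called in either comparison.

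Turning to autophagy, all 4 genes of the ULK initiation complex had positive promoter changes in both comparisons and none passed the test as a sum. The strongest promoter region of the kinase gene ULK1, at chr12:131895546-131896047, had 9.98, 5.47 and 8.85 CPM for DMSO, 19.98, 40.6 and 21.7 for osimertinib DTP and 8.42, 16.8 and 56.2 for osimertinib DTP + AZD5153. All osimertinib DTP libraries were above DMSO, and the change was 1.76 ± 0.65 (adjusted p = 0.0931). The osimertinib DTP + AZD5153 libraries overlapped DMSO, and the change was 1.74 ± 0.66 (adjusted p = 0.0742). The 2 promoter-rich libraries were again highest in their groups. For ULK1 the changes by edgeR were 1.41 ± 0.68 (adjusted p = 0.253) without osimertinib DTP replicate 2 and 0.63 ± 0.49 (adjusted p = 0.329) without osimertinib DTP + AZD5153 replicate 3. ATG13, the adaptor of the complex, had 1 region, at chr11:46649153-46649654, with 12, 5 and 3 reads for DMSO, 49, 24 and 54 for osimertinib DTP and 81, 49 and 6 for osimertinib DTP + AZD5153. Every treated library but osimertinib DTP + AZD5153 replicate 3 was above DMSO in reads, and the region rose by 2.78 ± 0.73 (adjusted p = 0.0228) and 2.96 ± 0.73 (adjusted p = 0.0114). The osimertinib DTP call was lost without 5 of the 9 libraries in turn (adjusted p 0.0528 to 0.134) and kept without DMSO replicate 1, osimertinib DTP + AZD5153 replicate 1, osimertinib DTP + AZD5153 replicate 2 or osimertinib DTP + AZD5153 replicate 3, and the other was lost without DMSO replicate 2 (0.0694), DMSO replicate 3 (0.0767) or osimertinib DTP + AZD5153 replicate 1 (0.0524). The same region tested as a promoter sum had a change of 2.75 ± 0.96 (adjusted p = 0.134). No peak was called on it in any DMSO library or in osimertinib DTP + AZD5153 replicate 3. ULK2, the other kinase, had a change of 1.36 ± 0.38 (adjusted p = 0.0702) in osimertinib DTP, and RB1CC1, the scaffold, of 0.56 ± 0.22 (adjusted p = 0.177). In the lipid kinase complex, the promoter sums of UVRAG and ATG14 had changes of 0.78 ± 0.39 (adjusted p = 0.303) and 0.13 ± 0.40 (adjusted p = 0.897).

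WIPI1, a phosphoinositide reader of the growing membrane, was the member with the smallest p at its promoter in osimertinib DTP. Its promoter sum was 39.6, 28.1 and 24.1 CPM for DMSO, 106, 104 and 117 for osimertinib DTP and 100.1, 123 and 87.7 for osimertinib DTP + AZD5153. Treated libraries started at 87.7 CPM and DMSO ended at 39.6. WIPI1 rose by 1.82 ± 0.23 (adjusted p = 0.00717) in osimertinib DTP and by 1.75 ± 0.23 (adjusted p = 0.00306) with AZD5153 added. The first call was lost without DMSO replicate 2 (0.0514), and the second held with each library left out in turn (adjusted p up to 0.0217). Both of its regions, chr17:68456410-68456911 and chr17:68457015-68457516, were called higher in both comparisons. The other 4 genes of this step, WIPI2, ATG2A, ATG2B and ATG9A, had changes from 0.20 to 0.56 in osimertinib DTP, none called.

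Of the 4 promoter sums of the conjugation machinery, 3 had negative changes, as among the glycosidases, and 1 was called. ATG16L1, which places the ATG12-ATG5 conjugate on the membrane, had a promoter sum of 166, 198 and 209 CPM for DMSO, 92.4, 72.5 and 98.6 for osimertinib DTP and 144, 161 and 82.9 for osimertinib DTP + AZD5153. All osimertinib DTP libraries were below all DMSO libraries, and so was each osimertinib DTP + AZD5153 library. ATG16L1 fell by 1.12 ± 0.25 on the log2 scale in osimertinib DTP (adjusted p = 0.0303), and the change with AZD5153 added was -0.56 ± 0.25 (adjusted p = 0.161). The call was lost without 6 of the 9 libraries in turn (adjusted p 0.0561 to 0.1396) and kept without osimertinib DTP + AZD5153 replicate 1, osimertinib DTP + AZD5153 replicate 2 or osimertinib DTP + AZD5153 replicate 3, and the replicate block gave 0.0810. Its start site region chr2:233209757-233210258 had 11.1, 17.04 and 13.3 CPM for DMSO, 3.92, 1.53 and 4.03 for osimertinib DTP and 7.21, 9.31 and 7.15 for osimertinib DTP + AZD5153, a change of -2.11 ± 0.56 (adjusted p = 0.0235) and -0.80 ± 0.54 (adjusted p = 0.327). ATG12, ATG7, the E1-like enzyme, and ATG5 had changes of -0.63 ± 0.44, -0.37 ± 0.20 and 0.37 ± 0.22 in osimertinib DTP.

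In the ATG8 family, GABARAPL1 rose and its relatives were not called. The promoter sum of GABARAPL1 was 45.8, 28.4 and 25.2 CPM for DMSO, 107, 77.3 and 128 for osimertinib DTP and 162, 154 and 101 for osimertinib DTP + AZD5153. No treated library overlapped DMSO, and it rose by 1.65 ± 0.30 (adjusted p = 0.0147) in osimertinib DTP and by 2.07 ± 0.30 (adjusted p = 0.00410) with AZD5153 added. For osimertinib DTP the call was lost without DMSO replicate 2 (0.0820), DMSO replicate 3 (0.0779) or osimertinib DTP replicate 3 (0.0560), and with AZD5153 added it held with each library left out in turn (adjusted p up to 0.0269). Its region just inside the gene, chr12:10213512-10214013, had 5.08, 3.201 and 2.11 CPM for DMSO, 16.3, 15.9 and 14.2 for osimertinib DTP and 22.4, 22.2 and 16.4 for osimertinib DTP + AZD5153. The groups did not overlap, and the changes were 2.15 ± 0.55 (adjusted p = 0.0191) and 2.55 ± 0.55 (adjusted p = 0.00562). The former call was lost without DMSO replicate 2 (0.118), DMSO replicate 3 (0.146), osimertinib DTP replicate 1 (0.0505) or osimertinib DTP replicate 3 (0.0534). The strongest promoter region of MAP1LC3B, which encodes the LC3B protein used to score autophagosomes, at chr16:87384245-87384746, had 11.5, 18.1 and 11.7 CPM for DMSO, 12.1, 49.7 and 9.47 for osimertinib DTP and 11.02, 9.54 and 39.2 for osimertinib DTP + AZD5153. The 2 promoter-rich libraries stood above the other 7, and the change was 0.79 ± 0.69 (adjusted p = 0.529). For MAP1LC3B the changes were -0.29 ± 0.64 (adjusted p = 0.8700) without osimertinib DTP replicate 2 and -0.42 ± 0.58 (adjusted p = 0.589) without osimertinib DTP + AZD5153 replicate 3. The difference between GABARAPL1 and MAP1LC3B was not tested. The receptor gene SQSTM1, whose product p62 binds ubiquitin and ATG8 proteins, had 38.3, 43.1 and 41.8 CPM for DMSO, 41.9, 86.4 and 44.3 for osimertinib DTP and 46.99, 64.5 and 108 for osimertinib DTP + AZD5153 at chr5:179820169-179820670. The osimertinib DTP libraries overlapped DMSO, and the changes were 0.49 ± 0.49 (adjusted p = 0.599) and 0.83 ± 0.50 (adjusted p = 0.264). For SQSTM1 the changes were 0.12 ± 0.42 (adjusted p = 0.922) without osimertinib DTP replicate 2 and 0.43 ± 0.44 (adjusted p = 0.456) without osimertinib DTP + AZD5153 replicate 3. The sums of SQSTM1 and NBR1 had changes of 0.27 ± 0.22 and 0.20 ± 0.53.

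**Figure D4:**
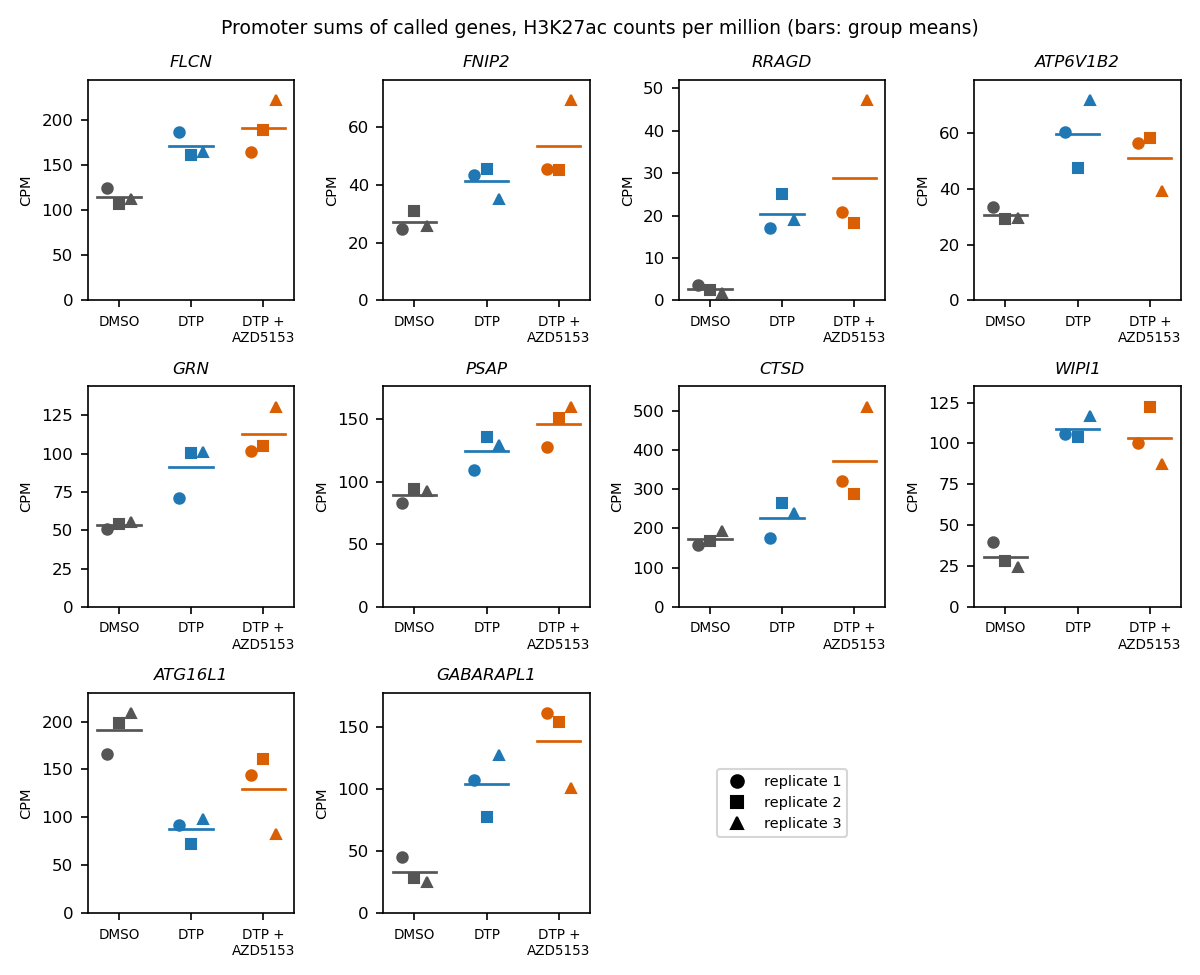
Promoter sums (CPM) in each library for the 10 genes called in either comparison with DMSO, by group, where symbols are replicates and horizontal lines group means. For RRAGD, GABARAPL1, WIPI1 and GRN every treated point lies above every DMSO point, and for ATG16L1 every treated point lies below.

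Outside promoters the members moved in both directions. Of 113 regions in introns, exons, gene ends and intergenic sequence, 14 were called higher and 7 lower in osimertinib DTP against DMSO (12.4% and 6.19%, against 9.79% and 10.8% of all annotated regions of these classes), with a median of -0.31 against -0.06. With AZD5153 added, 20 were higher (17.7%, against 14.3%) and 17 lower (15%, against 16.1%), with a median of 0.11 against 0.03. The sign of that median depended on the scaling, with -0.13 without TMM and -0.25 with the loess offset, and on single libraries, with -0.05 without DMSO replicate 1 and -0.11 without osimertinib DTP + AZD5153 replicate 2. The 14 regions between 1 and 3 kb from a start site had a median of -1.09 in osimertinib DTP, with 1 called higher and 3 lower (7.14% and 21.4%, against 6.9% and 7.36%). With AZD5153 added 1 was higher and 5 lower (7.14% and 35.7%, against 10.6% and 12.7%), and the median was -0.72. Summed per gene over 8143 genes, 8 of the 22 members with such regions were called in osimertinib DTP (36.4%), 6 higher and 2 lower, and 12 with AZD5153 added (54.5%), 7 higher and 5 lower. Of all genes, 34.5% and 42.9% were called. A region was assigned to a gene by the submitters' annotation, and which gene it acts on was not measured.

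**Figure D5:**
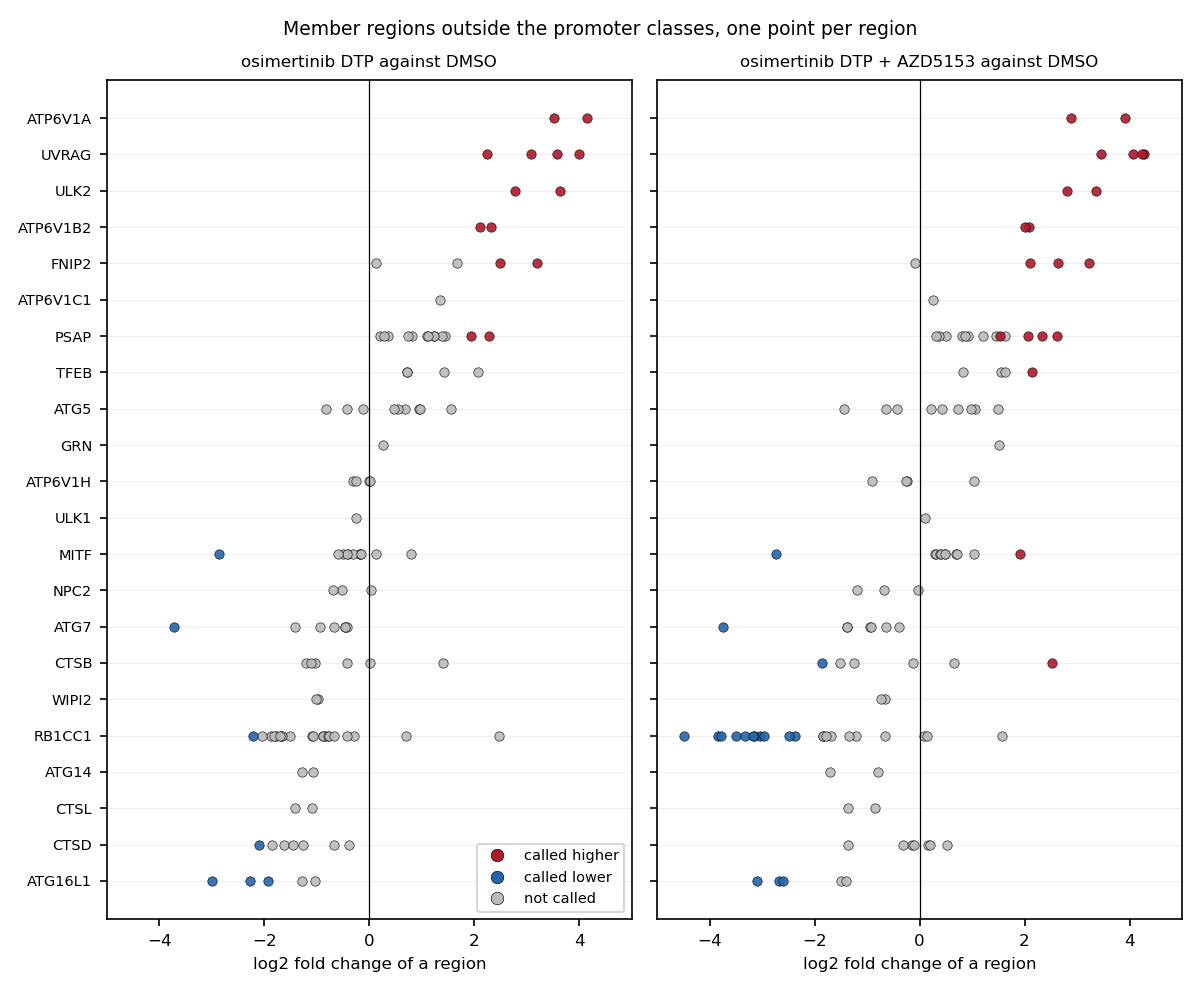
Log2 fold change of each member region outside the promoter classes, 1 point per region and 1 row per gene, in osimertinib DTP (left) and osimertinib DTP + AZD5153 (right) against DMSO, where red points were called higher, blue lower and grey not called. The regions of UVRAG, ULK2, ATP6V1A and ATP6V1B2 lie right of 0 with called points, and called points of RB1CC1, ATG16L1 and ATG7 lie left of 0.

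UVRAG, a subunit of the lipid kinase complex that also acts in vesicle fusion, had the smallest p of any member sum. Its 4 regions outside promoters summed to 9.196, 4.797 and 4.19 CPM for DMSO, 60.00, 49.97 and 64.99 for osimertinib DTP and 116, 101 and 58.6 for osimertinib DTP + AZD5153. The lowest treated library had 49.97 CPM and the highest DMSO library 9.196. The sum rose by 3.26 ± 0.43 (adjusted p = 0.000819) and 3.92 ± 0.44 (adjusted p = 0.000263), and both calls held with each library left out in turn (adjusted p up to 0.00866 and 0.00284). The leading region, an intronic one at chr11:75859014-75859515, held 5, 2 and 2 reads for DMSO, 41, 45 and 43 for osimertinib DTP and 60, 51 and 30 for osimertinib DTP + AZD5153. DMSO was near empty, and the region rose by 3.99 ± 0.65 (adjusted p = 0.00343) and 4.28 ± 0.65 (adjusted p = 0.00128). All 4 regions were called higher in both comparisons, while the UVRAG promoter sum was not called.

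Regions of ULK2 and of the V-ATPase genes ATP6V1A and ATP6V1B2 also rose. Other V-ATPase sums outside promoters were not called by edgeR. ATP6V1C1 had changes of 1.45 ± 0.54 (adjusted p = 0.0609) and 0.29 ± 0.55 (adjusted p = 0.693). ATP6V1H had changes of -0.04 ± 0.30 (adjusted p = 0.932) and -0.002 ± 0.30 (adjusted p = 0.995). The 2 regions just past the ULK2 gene summed to 9.196, 2.51 and 3.59 CPM for DMSO, 54.1, 63.7 and 36.04 for osimertinib DTP and 48.7, 35.1 and 63.7 for osimertinib DTP + AZD5153. Treated libraries did not overlap DMSO, and the sum rose by 3.33 ± 0.53 (adjusted p = 0.00152) and 3.26 ± 0.53 (adjusted p = 0.00107). Of these, chr17:19770191-19770692 held 19, 6 and 4 reads for DMSO, 110, 117 and 80 for osimertinib DTP and 110, 72 and 48 for osimertinib DTP + AZD5153 and rose by 3.63 ± 0.65 (adjusted p = 0.00440) and 3.35 ± 0.65 (adjusted p = 0.00314). Regions of ATP6V1A outside promoters summed to 7.47, 3.65 and 5.09 CPM for DMSO, 58.1, 59.96 and 124 for osimertinib DTP and 56.3, 79.3 and 19.2 for osimertinib DTP + AZD5153. All treated libraries were above DMSO, osimertinib DTP + AZD5153 replicate 3 being the lowest of them, and the sum rose by 3.90 ± 0.60 (adjusted p = 0.00136) and 3.28 ± 0.58 (adjusted p = 0.00165). The intronic one at chr3:113783049-113783550 had 1.18, 0.6196 and 0.503 CPM for DMSO, 9.56, 9.74 and 22.2 for osimertinib DTP and 12.1, 20.8 and 2.13 for osimertinib DTP + AZD5153 and rose by 4.14 ± 0.79 (adjusted p = 0.00574) and 3.91 ± 0.79 (adjusted p = 0.00404). ATP6V1B2 had 39.9, 16.9 and 17.4 CPM for DMSO, 126, 95.9 and 151 for osimertinib DTP and 123, 112 and 55.6 for osimertinib DTP + AZD5153. Treated and DMSO libraries did not overlap, and it rose by 2.33 ± 0.45 (adjusted p = 0.00348) and 1.98 ± 0.45 (adjusted p = 0.00556). The sums of ULK2, ATP6V1A and ATP6V1B2 kept their calls without each library in turn. Among the single regions, those of ULK2 and ATP6V1A lost the call in osimertinib DTP without DMSO replicate 2 (adjusted p = 0.0542 and 0.0599).

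FNIP2, PSAP and GRN, whose promoter sums were called higher in osimertinib DTP + AZD5153 against DMSO, also had sums outside promoters called higher there. Against osimertinib DTP none of these sums was called. FNIP2 had 42.5, 29.9 and 25.1 CPM for DMSO, 103, 91.4 and 109 for osimertinib DTP and 120.2, 142 and 51.6 for osimertinib DTP + AZD5153. Each treated library was above DMSO, and it rose by 1.64 ± 0.40 (adjusted p = 0.0103) and 1.70 ± 0.40 (adjusted p = 0.00691). The first call was lost without DMSO replicate 2 (0.0568) or DMSO replicate 3 (0.0605). Its intronic region chr4:158814868-158815369 rose by 3.19 ± 0.63 (adjusted p = 0.00629), which was lost without DMSO replicate 2 (0.0585) or DMSO replicate 3 (0.0560). PSAP had 13 such regions, with 314, 299 and 301 CPM for DMSO, 513, 651 and 567 for osimertinib DTP and 609.8, 632 and 1093 for osimertinib DTP + AZD5153. Groups did not overlap with DMSO, and the sum rose by 0.92 ± 0.27 (adjusted p = 0.0224) and 1.35 ± 0.27 (adjusted p = 0.00281). In osimertinib DTP the call was lost without 5 of the 9 libraries in turn (adjusted p 0.0555 to 0.0836) and kept without osimertinib DTP replicate 1, osimertinib DTP + AZD5153 replicate 1, osimertinib DTP + AZD5153 replicate 2 or osimertinib DTP + AZD5153 replicate 3. An intergenic region upstream of PSAP, chr10:71867555-71868056, had 3.36, 3.82 and 2.31 CPM for DMSO, 9.94, 10.7 and 16.01 for osimertinib DTP and 20.2, 26.6 and 11.8 for osimertinib DTP + AZD5153 and rose by 2.63 ± 0.57 (adjusted p = 0.00555) with AZD5153 added, which was lost without DMSO replicate 3 (0.0535). The single GRN region had 14.4, 11.7 and 12.3 CPM for DMSO, 13.4, 22.9 and 12.6 for osimertinib DTP and 31.7, 30.6 and 73.8 for osimertinib DTP + AZD5153. The osimertinib DTP libraries overlapped DMSO with a change of 0.35 ± 0.45 (adjusted p = 0.576), and it rose by 1.80 ± 0.45 (adjusted p = 0.00934) with AZD5153 added, with osimertinib DTP + AZD5153 replicate 3 the highest. That call held without it, as without each other library. Tested among all regions rather than as a gene sum, the same region had a change of 1.51 ± 0.53 (adjusted p = 0.0559) with AZD5153 added and was not called.

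RB1CC1, the scaffold of the ULK complex also known as FIP200, had the most regions of any member (25) and lost signal away from its promoter. Its 21 regions outside the promoter classes summed to 452, 638 and 582 CPM for DMSO, 283, 285 and 431 for osimertinib DTP and 183, 233 and 142 for osimertinib DTP + AZD5153. Every treated library was below every DMSO library. The change was -0.74 ± 0.29 (adjusted p = 0.0663) in osimertinib DTP, and with AZD5153 added the sum fell by 1.58 ± 0.29 on the log2 scale (adjusted p = 0.00192), a call that held with each library left out in turn (adjusted p up to 0.0137). Of the 25 regions, 3 were called lower in osimertinib DTP and 13 with AZD5153 added. An upstream intergenic region at chr8:52799631-52800132 had 9.16, 16.6 and 9.65 CPM for DMSO, 4.21, 3.62 and 3.12 for osimertinib DTP and 0.401, 1.28 and 0.773 for osimertinib DTP + AZD5153. The 3 groups were fully separated, and the changes from DMSO were -1.69 ± 0.56 (adjusted p = 0.0591) and -3.84 ± 0.64 (adjusted p = 0.00163). The region at chr8:52743589-52744090, within 2 kb of the start site, had 7.35, 17.1 and 12.3 CPM for DMSO, 2.103, 2.505 and 2.92 for osimertinib DTP and 1.603, 1.75 and 0.966 for osimertinib DTP + AZD5153, with changes of -2.28 ± 0.56 (adjusted p = 0.0166) and -3.06 ± 0.59 (adjusted p = 0.00308). The former call was lost without 5 of the 9 libraries in turn (adjusted p 0.0722 to 0.126) and kept without DMSO replicate 1, osimertinib DTP + AZD5153 replicate 1, osimertinib DTP + AZD5153 replicate 2 or osimertinib DTP + AZD5153 replicate 3. At the promoter itself the RB1CC1 sum had changes of 0.56 ± 0.22 (adjusted p = 0.177) and 0.61 ± 0.22 (adjusted p = 0.0911). The difference between promoter and other regions was not tested.

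ATG16L1 and ATG7 lost signal outside their promoters. ATG16L1 summed to 184, 219 and 218 CPM for DMSO, 53.2, 63.7 and 105 for osimertinib DTP and 42.2, 88.4 and 33.4 for osimertinib DTP + AZD5153. Each treated library was below each DMSO library, with changes of -1.48 ± 0.41 (adjusted p = 0.0178) and -1.90 ± 0.42 (adjusted p = 0.00460). The first call was lost without DMSO replicate 2 (0.0626), DMSO replicate 3 (0.0593), osimertinib DTP replicate 1 (0.0703) or osimertinib DTP replicate 2 (0.0723), and the second held with each library left out in turn (adjusted p up to 0.0212). Its intronic region chr2:233244516-233245017 had 13.97, 20.8 and 17.9 CPM for DMSO, 2.58, 1.53 and 2.42 for osimertinib DTP and 3.11, 3.84 and 1.16 for osimertinib DTP + AZD5153, changes of -2.99 ± 0.59 (adjusted p = 0.00637) and -2.67 ± 0.58 (adjusted p = 0.00595), and lost the first call without DMSO replicate 2 (0.0575). The neighbour chr2:233245172-233245673 had a change of -2.27 ± 0.55 (adjusted p = 0.0161) and -3.10 ± 0.58 (adjusted p = 0.00282). In all, 5 of the 12 ATG16L1 regions were called lower in each comparison and 0 higher. For ATG7 the region chr3:11278896-11279397, within 2 kb of a start site, held 92, 96 and 57 reads for DMSO, 12, 4 and 4 for osimertinib DTP and 8, 9 and 8 for osimertinib DTP + AZD5153. Treated libraries were all below DMSO, and the changes were -3.47 ± 0.64 (adjusted p = 0.00464) and -2.84 ± 0.62 (adjusted p = 0.00583). An intronic region, chr3:11350241-11350742, held 61, 153 and 110 reads for DMSO, 13, 3 and 7 for osimertinib DTP and 15, 6 and 0 for osimertinib DTP + AZD5153, with changes of -3.72 ± 0.79 (adjusted p = 0.00862) and -3.74 ± 0.79 (adjusted p = 0.00519). The ATG7 sum had a change of -0.57 ± 0.31 (adjusted p = 0.1802) and -0.86 ± 0.31 (adjusted p = 0.0466). The latter call was lost without 6 of the 9 libraries in turn (adjusted p 0.0566 to 0.137) and kept without osimertinib DTP replicate 1, osimertinib DTP + AZD5153 replicate 1 or osimertinib DTP + AZD5153 replicate 3.

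Single regions or sums of 5 further genes were called lower. CTSL, cathepsin L, had 95.1, 93.4 and 79.6 CPM for DMSO, 45.1, 45.2 and 37.9 for osimertinib DTP and 52.7, 47.6 and 40.4 for osimertinib DTP + AZD5153 outside promoters. No treated library overlapped DMSO, and the changes were -1.07 ± 0.29 (adjusted p = 0.0166) and -0.92 ± 0.29 (adjusted p = 0.0255). The osimertinib DTP call was lost without DMSO replicate 2 (0.0720), osimertinib DTP replicate 2 (0.0521) or osimertinib DTP replicate 3 (0.0681), and the other was lost without DMSO replicate 1 (0.0648), DMSO replicate 2 (0.0975), DMSO replicate 3 (0.0622) or osimertinib DTP + AZD5153 replicate 2 (0.0556). ATG14, which targets the lipid kinase complex to autophagosome sites, had 31.3, 60.8 and 53.3 CPM for DMSO, 27.04, 20.7 and 24.6 for osimertinib DTP and 20.96, 29.8 and 9.101 for osimertinib DTP + AZD5153. All treated libraries were below DMSO, and it had a change of -1.24 ± 0.45 (adjusted p = 0.0452) with AZD5153 added. This call was lost without 6 of the 9 libraries in turn (adjusted p 0.0645 to 0.1695) and kept without DMSO replicate 1, osimertinib DTP + AZD5153 replicate 2 or osimertinib DTP + AZD5153 replicate 3. An intergenic region of CTSD at chr11:1771275-1771776 had 6.44, 4.96 and 8.55 CPM for DMSO, 2.199, 0.557 and 1.81 for osimertinib DTP and 3.21, 1.63 and 2.899 for osimertinib DTP + AZD5153 and a change of -2.09 ± 0.61 (adjusted p = 0.0358) in osimertinib DTP. All treated libraries were below DMSO. The call was lost without 6 of the 9 libraries in turn (adjusted p 0.0742 to 0.164) and kept without osimertinib DTP + AZD5153 replicate 1, osimertinib DTP + AZD5153 replicate 2 or osimertinib DTP + AZD5153 replicate 3, and scaling without TMM gave 0.0667. Its promoter sum, as given above, had a positive change. The CTSB region chr8:11877563-11878064, near the gene of cathepsin B, had 6.35, 4.54 and 3.92 CPM for DMSO, 2.87, 2.37 and 1.21 for osimertinib DTP and 1.002, 1.86 and 1.16 for osimertinib DTP + AZD5153 and had a change of -1.87 ± 0.60 (adjusted p = 0.0384) with AZD5153 added. DMSO libraries were all above the treated ones. This call was lost without 6 of the 9 libraries in turn (adjusted p 0.0532 to 0.143) and kept without osimertinib DTP replicate 2, osimertinib DTP + AZD5153 replicate 2 or osimertinib DTP + AZD5153 replicate 3. It also missed the threshold with only the 2 groups compared (0.0817). A more distant CTSB region, chr8:11897121-11897622, had 1.36, 1.65 and 1.21 CPM for DMSO, 2.77, 4.73 and 3.83 for osimertinib DTP and 9.42, 8.03 and 6.96 for osimertinib DTP + AZD5153 and rose by 2.52 ± 0.55 (adjusted p = 0.00590) with AZD5153 added. Its groups did not overlap, and the call was lost without DMSO replicate 3 (0.0522). Far upstream of MITF, chr3:69698895-69699396 had 3.900, 11.05 and 6.34 CPM for DMSO, 0.478, 1.11 and 1.31 for osimertinib DTP and 1.002, 1.98 and 0 for osimertinib DTP + AZD5153, with changes of -2.87 ± 0.79 (adjusted p = 0.0291) and -2.74 ± 0.79 (adjusted p = 0.0239), every treated library being below DMSO. With only the 2 groups compared the adjusted p of the latter was 0.0817. The former was lost without 5 of the 9 libraries in turn (adjusted p 0.0868 to 0.178) and kept without DMSO replicate 1, osimertinib DTP + AZD5153 replicate 1, osimertinib DTP + AZD5153 replicate 2 or osimertinib DTP + AZD5153 replicate 3, and the latter was lost without DMSO replicate 2 (0.132), DMSO replicate 3 (0.0656) or osimertinib DTP + AZD5153 replicate 1 (0.0683).

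AZD5153 after osimertinib was compared with osimertinib alone. By edgeR 0 of the 222 member regions were called higher and 0 lower, as for all regions (0 and 0 percent), and 13 had an unadjusted p under 0.05, against 7013 of the 157919 regions. DESeq2 also called 0 member regions, and 18 higher and 68 lower of all. Weights for library quality, a fit added after the data were seen, called 8 higher and 4 lower, 3.6% and 1.8% of the members, against 1.88% and 1.79% of all regions. By edgeR promoter sums gave 0 calls, as over all genes (0 percent), and DESeq2 gave 0. At an unadjusted edgeR p under 0.05 were 4 of 47. Sums outside promoters also gave 0 calls by edgeR, again as over all genes (0 percent), and DESeq2 gave 1. At an unadjusted edgeR p under 0.05 were 3 of 22. The matching shares of all genes, at an unadjusted p or by DESeq2, are not given here. These counts are therefore not read as a trait of the members. The intervals were wide. The RRAGD promoter had a change of 0.50 (95% interval -0.46 to 1.45), that of GABARAPL1 of 0.42 (-0.23 to 1.07) and that of WIPI1 of -0.07 (-0.56 to 0.42). CTSD had the smallest unadjusted p of the promoter sums, with a change of 0.72 (0.17 to 1.27) and an adjusted p of 0.498 by edgeR. Of the 13 regions with an unadjusted p under 0.05, 5 belonged to RB1CC1, 3 each to ATG16L1 and CTSD and 1 each to CTSB and GRN. All 13 had an adjusted p of 1.00 by edgeR. Leaving out osimertinib DTP + AZD5153 replicate 3 changed 2 promoter sums. MAP1LC3B had 94.9, 82.5 and 96.4 CPM for DMSO, 113, 137 and 117 for osimertinib DTP and 67.4, 64.4 and 145 for osimertinib DTP + AZD5153, where replicate 3 stood above the rest of its group. Without it the change was -0.89 with an adjusted p of 0.0366 by edgeR, against -0.41 ± 0.30 (adjusted p = 0.775) with it. CTSZ had 58.99, 54.6 and 72.3 CPM for DMSO, 38.1, 56.6 and 32.99 for osimertinib DTP and 15.9, 13.2 and 55.7 for osimertinib DTP + AZD5153. The same replicate was the high one, and without it the change was -1.56 (adjusted p = 0.0389 by edgeR). The median of the member promoter regions was 0.15 with replicate 3 and -0.35 without it, and over all annotated promoter regions 0.08 and -0.34.

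Further genes of both pathways gave a frame for these counts. Of 50 other lysosomal genes, the 97 promoter regions had a median of 0.51 in osimertinib DTP, with 2 called higher and 0 lower, and 0.55 with AZD5153 added, with 4 higher and 2 lower. Their 47 promoter sums had a median of 0.20, with 0 called in osimertinib DTP, and 7 higher and 2 lower with AZD5153 added. Of 43 other autophagy genes, the 80 promoter regions had medians of 0.41 and 0.52, with 1 called in each direction in osimertinib DTP and 3 higher and 2 lower with AZD5153 added. Their 41 promoter sums had a median of 0.07, with 1 higher and 0 lower, and 3 higher and 1 lower with AZD5153 added. Of the 47 member promoter sums, 6 were called in osimertinib DTP and 8 with AZD5153 added, and of all genes 6.15% and 13.9%. By promoter sums, both directions together, the members thus had no more calls with AZD5153 added than the other lysosomal genes. In osimertinib DTP they had 6 and the other lysosomal genes 0. By single promoter regions, more members were called higher than other lysosomal genes in both comparisons. These differences were not tested. Of annotated promoter regions, 2.78% were called higher and 1.85% lower in osimertinib DTP, and 5.32% and 3.18% with AZD5153 added.

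The peak lists do not pass through the count test, but they come from the same libraries and are no independent check. The matching shares over all annotated regions are not given here, so the shares below are not read as a trait of the members. The list of osimertinib DTP replicate 3 has H1875 in its peak names, where the labels say H1975, and the labels were followed. A peak overlapped a member promoter region in 770 of 855 pairs of region and library (90.1%), and a member region outside promoters in 784 of 1017 (77.1%). Without that list the shares were 89.7% and 76.0%. The third osimertinib DTP + AZD5153 library had peaks on 49 of 113 such regions (43.4%). At the strongest promoter region of each gene, 39 of 47 genes had a peak in all 9 libraries. Missing in DMSO replicates were peaks of RRAGD and ATG13 (all 3), TFEB (replicates 2 and 3), GABARAPL1 and MCOLN1 (replicate 3) and CTSA (replicate 2), and MITF lacked one only in osimertinib DTP + AZD5153 replicate 3. Peaks were also missing in treated libraries. RRAGD lacked one in osimertinib DTP replicates 1 and 3, and ATG12 in osimertinib DTP replicate 1. In osimertinib DTP + AZD5153, ATG13 and ATG12 lacked one in replicate 3 and CTSA in replicate 2.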

How the data were processed

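H3K27ac ChIP-seq was done by the submitters on H1975 cells with 75-base single-end reads. The submitters' processing notes name BWA 0.7.17, MACS2 2.2.6, featureCounts 2.0.0, ChIPseeker 1.29.1 and hg38, and their settings are not given in the sources used here. The authors deposited whole-number counts per region of 502 bases for all 9 libraries and the input, together with a filtered table that adds a gene symbol, a class and a distance to the start site. How that table was filtered is not given. The deposited peak lists hold 1 list per library, with fold enrichment and −log10 p and q values as MACS2 wrote them. No column of the authors' own group comparisons was used.

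Members were matched by symbol, and classes were taken from the deposited annotation (promoter within 1 kb, flank from 1 to 3 kb, all others). With R 4.3.3, edgeR 4.0.16 fitted a mean per group to all 9 libraries (filterByExpr at a minimum count of 10, TMM, robust glmQLFit and glmQLFTest) over all counted regions, with Benjamini-Hochberg adjustment over all regions tested and a threshold of 0.05. Counts summed per gene symbol over promoter regions, and over regions in no promoter class, were fitted in the same way over all genes. CPM uses TMM-scaled totals of the table in question. At most 805 reads fell on a member region in 1 library, and 1 read per position and strand would allow 1152. The steps were tested on simulated data. Depth limits regions with few reads, and counting error is part of the fitted spread.

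Alternatives were DESeq2 1.42.0, no filter, library size without TMM, a loess offset, annotated regions alone, only the 2 groups compared, promoter classes up to 3 kb, the replicate block and each library left out. Library quality weights (limma 3.58.1) and counts corrected for saturation were added after the data were seen. Same-numbered libraries deviated together for osimertinib DTP and DMSO (correlations of 0.349, 0.368 and 0.341) but not in each pair with osimertinib DTP + AZD5153 (lowest -0.269), so the block is shown where it changes a result.

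The scaling shifted the median log2 change of all regions. In osimertinib DTP against DMSO it was 0.15 with TMM, 0.06 without and -0.01 with loess. With AZD5153 added it was 0.23, -0.02 and 0.03.

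The member list, the pathway lists and the tests were chosen with earlier results of these data known. Library values are given for 10 lead genes (TFEB, MITF, LAMP1, CTSD, SQSTM1, MAP1LC3B, ULK1, ATP6V1A, RRAGD and FLCN) at their strongest promoter region, for every gene with a called sum and for the called regions with the smallest p (up to 6 per direction and comparison, 1 per gene). Other regions and genes that are named were chosen after their values were seen or stand at the ends of their role group. Promoter windows are from RefSeq (GRCh38.p14), and 12 members were not matched in the table used here. Peaks were matched to regions by any overlap. Drawings used matplotlib 3.10.9.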

Additional observations from a re-analysis of the deposited data

How the results depend on the processing

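This count covers 56 calls, those of sums and of the regions with the smallest p. Of these, 0 changed sign under any alternative and 27 kept their call in all fits, left-out libraries included. Other called regions named above were not among the 56. They include those of TFEB and ATG13, the downstream MITF start site and the more distant CTSB region, whose calls were lost without single libraries as given there. The number of member regions called higher and lower in osimertinib DTP against DMSO was 24 and 12, and became 46 and 33 with only the 2 groups compared, 44 and 41 with library quality weights (chosen after the data were seen), and 30 and 23 with DESeq2. Over all regions the weights called 26618 higher and 23713 lower of 157919. With only the 2 groups compared, 19930 and 18728 of 146480 were called. Against DMSO with AZD5153 added, 32 and 22 became 72 and 47 with the weights, which called 37608 higher and 39284 lower over all regions. Between the treated groups, 0 and 0 became 8 and 4 with the weights. Promoter sums called in osimertinib DTP were 6, and 12 with DESeq2, 19 with the weights and 3 with the replicate block. With AZD5153 added they were 8, and 13 with DESeq2, 24 with the weights and 7 with the replicate block. Between the treated groups they were 0, and 1 with the weights. Sums outside promoters were 8 in osimertinib DTP and 15 with the weights, and 0 between the treated groups and 1 with DESeq2. With 1 library left out in turn, member regions ranged from 1 (without DMSO replicate 2) to 46 (without osimertinib DTP + AZD5153 replicate 3) higher and from 1 to 36 lower in osimertinib DTP, and from 10 (without DMSO replicate 3) to 44 higher and 15 to 33 lower with AZD5153 added. Promoter sums ranged from 0 to 14, from 4 to 14 with AZD5153 added and from 0 to 2 between the treated groups. Sums outside promoters ranged from 4 to 14 and from 9 to 15. The lowest counts fell without a DMSO library and the highest without osimertinib DTP + AZD5153 replicate 3. The member median outside promoters with AZD5153 added was 0.11, -0.13 without TMM and -0.25 with the loess offset, and the loess offset turned 32 higher and 22 lower into 22 and 26. Between the treated groups the promoter median of 0.15 became -0.35 without osimertinib DTP + AZD5153 replicate 3. The causes were not tested. The replicate block took the call from ATG16L1, ATP6V1B2 and GRN (promoter sums, osimertinib DTP) and, with AZD5153 added, from the FNIP2 promoter sum (adjusted p = 0.0639 by edgeR) and the ATG14 sum outside promoters (adjusted p = 0.0610 by edgeR), and changed no other of the 56 calls. With only the 2 groups compared the CTSB and MITF regions with AZD5153 added missed the threshold, and without TMM the CTSD region and GRN did in osimertinib DTP. Promoter classes widened to 3 kb took the calls of FNIP2 (log2 change 0.40) and PSAP (0.43) with AZD5153 added and of GRN (0.78) in osimertinib DTP. A stricter peak setting gave 84.6% in place of 90.1%. Regions with few reads in DMSO, such as those of RRAGD, are limited by depth. A fit of osimertinib DTP + AZD5153 without replicate 3 rests on 2 libraries.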

Other observations

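Of the 4 genes with no assigned region, 3 had counted regions in the gene or within 1 kb of it. The region over the start site of BECN1, a core subunit of the lipid kinase complex, was assigned to the microRNA gene MIR6781. It held 167, 202 and 156 reads for DMSO, 153, 237 and 138 for osimertinib DTP and 166, 164 and 170 for osimertinib DTP + AZD5153, and the groups overlapped. At CTSS, cathepsin S, there was 1 region assigned to HORMAD1 and 1 that was not annotated, and MAP1LC3A had 3 regions that were not annotated. The gene NEU1, the lysosomal sialidase, had none.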
